A study of Mus musculus with 8 samples.

Results

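The canonical histone genes sit in clusters, and 68 of the 24413 gene symbols counted here belong to them: every symbol that begins with Hist1h, Hist2h, Hist3h or Hist4h. They encode the linker histone H1 (6 genes) and the core histones H2A (18), H2B (19), H3 (12) and H4 (13). Their transcripts were counted in plasmablasts, cycling B lineage cells that have begun to secrete antibody. B220+ cells of the spleen of C57BL/6J mice were treated with 25 µg/ml lipopolysaccharide (LPS), which makes B cells divide, and after 4 days CD22-CD138+ cells were sorted. The knockout group (4 libraries) had the genotype Jagn1fl/fl Mb1Cre+: floxed alleles of Jagn1, the gene of an endoplasmic reticulum membrane protein, and a Cre recombinase driven by the B lineage gene Cd79a (Mb1). The control group (4 libraries) had the genotype Jagn1fl/fl with no Cre listed, so the loss of Jagn1 and the presence of the recombinase cannot be told apart. The series states 4 mice per genotype; the sources used here give no animal age.

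Histones package DNA: H2A, H2B, H3 and H4 form the nucleosome core, and H1 binds the DNA that enters and leaves it. The clustered genes have no introns as a rule and are transcribed mainly in S phase, when new DNA has to be packaged. Their mRNAs typically end not in a poly(A) tail but just after a stem-loop, which the stem-loop binding protein SLBP holds through processing, translation and decay. The libraries were made with a 3′ kit primed by oligo-dT, which starts copying at runs of A. A cluster histone mRNA without a tail offers that primer no such start, so the counts below report the tailed or A-rich fraction of these transcripts and not their total amount. Whether a group difference lies in the amount of a histone mRNA or in its tailed fraction cannot be told apart in these data.

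The stem-loops are shown for the 9 members that both changed in the knockout and carry a stem-loop in the annotated transcript (GENCODE M21, GRCm38, the mm10 build). Each line gives the 26 bases around it, 5′ to 3′, on the strand of the gene, with the 16 bases of the stem-loop in capitals.
Hist1h1e: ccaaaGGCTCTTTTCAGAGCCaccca
Hist1h2ae: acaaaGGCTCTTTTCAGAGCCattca
Hist3h2a: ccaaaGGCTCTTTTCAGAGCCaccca
Hist1h2bg: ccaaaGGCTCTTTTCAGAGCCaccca
Hist1h2bk: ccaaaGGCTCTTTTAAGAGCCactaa
Hist1h4b: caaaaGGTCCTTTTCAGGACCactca
Hist1h4d: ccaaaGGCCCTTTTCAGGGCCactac
Hist1h4i: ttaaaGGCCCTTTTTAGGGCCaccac
Hist4h4: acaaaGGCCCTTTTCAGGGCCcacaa
The pattern searched was GGNNCTTNTNAGNNCC on the transcript strand with all 6 stem bases paired, G with T pairs included, and 46 of the 68 members hold it. It comes in 8 spellings, of which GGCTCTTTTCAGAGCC occurs in 26 members, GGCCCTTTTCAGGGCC in 7 and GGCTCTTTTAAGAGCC in 6. All 12 H4 stem-loops begin with GGCCC or GGTCC, and those of the other families begin with GGCTC. In the first 100 bases after the stop codon the pattern lies in 28 of 33 member transcripts long enough to be read (84.8%), against 3 of 40165 transcripts of other protein-coding genes (0.00747%). Among the called members, Hist1h1a, Hist1h2ai and Hist2h2bb have no such pattern in their annotated transcript, and those of Hist1h2ai and Hist2h2bb are annotated with 0 bases after the stop codon.

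The upstream sequence of 4 called members is printed to show the promoter elements that the families share or lack. These are the 250 bases before the RefSeq gene start (GRCm38.p6), 5′ to 3′ on the plus strand, which is the strand of all 4 genes: Hist1h1a at chr13:23763418-23763667, Hist3h2a at chr11:58954435-58954684, Hist1h2bk at chr13:22035571-22035820 and Hist1h4d at chr13:23581318-23581567. Capitals mark matches on either strand to CCAAT, to the TATA box letters TATAAA, to the octamer ATGCAAAT and to the E2F-like words TTTCGCGC and TTTGGCGC. A base was allowed to belong to more than 1 match.
Hist1h1a: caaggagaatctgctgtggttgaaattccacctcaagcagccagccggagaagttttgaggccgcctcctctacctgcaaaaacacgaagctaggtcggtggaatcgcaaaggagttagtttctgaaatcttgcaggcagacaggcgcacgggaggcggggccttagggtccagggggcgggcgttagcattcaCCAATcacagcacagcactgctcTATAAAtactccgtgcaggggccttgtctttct
Hist3h2a: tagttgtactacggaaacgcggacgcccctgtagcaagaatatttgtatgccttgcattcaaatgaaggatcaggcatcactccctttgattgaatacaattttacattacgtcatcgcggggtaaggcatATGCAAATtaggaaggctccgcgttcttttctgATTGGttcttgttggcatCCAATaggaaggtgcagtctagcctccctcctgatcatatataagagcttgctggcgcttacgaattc
Hist1h2bk: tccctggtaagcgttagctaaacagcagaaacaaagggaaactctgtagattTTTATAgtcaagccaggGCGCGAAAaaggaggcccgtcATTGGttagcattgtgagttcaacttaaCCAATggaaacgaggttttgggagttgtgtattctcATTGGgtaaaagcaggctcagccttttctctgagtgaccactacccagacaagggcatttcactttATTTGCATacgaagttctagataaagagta
Hist1h4d: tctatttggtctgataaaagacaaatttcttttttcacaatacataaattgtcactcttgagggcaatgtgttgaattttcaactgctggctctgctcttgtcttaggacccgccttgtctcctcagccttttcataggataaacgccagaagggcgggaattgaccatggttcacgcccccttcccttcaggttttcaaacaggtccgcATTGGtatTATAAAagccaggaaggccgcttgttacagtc
CCAAT, the letters bound by the factor NF-Y, lay in 50 of the 61 members with a RefSeq promoter (82%), against 34.5% of 27025 promoters of all genes. It was present in all 6 H1, all 18 H2A and all 15 H2B promoters, in 8 of 10 H3 promoters and in 3 of 12 H4 promoters. The TATA box letters lay in 29 of 61 (47.5%, against 13% of all promoters). The octamer ATGCAAAT, known as an element of H2B promoters, lay in 7 of 18 H2A and 6 of 15 H2B promoters and in 0 of the H1, H3 and H4 promoters, and in 1.61% of all promoters. The E2F-like words TTTCGCGC or TTTGGCGC lay in 7 of 61 (11.5%, against 0.673% of all promoters). Of the 12 called members, 9 held CCAAT, 7 TATAAA, 5 the octamer and 1 an E2F-like word. These matches describe the letters only. Some H2A and H2B genes lie head to head and share upstream bases, as Hist1h2ae (chr13:23570517-23571220, minus strand) and Hist1h2bg (chr13:23571396-23572013, plus strand) do, so their promoters are not independent examples.

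By position, 54 members lie on chromosome 13 within 2219.1 kb (chr13:21715763-23934851), 10 on chromosome 3 within 50.3 kb (chr3:96219865-96270132), 3 on chromosome 11 within 7.9 kb (chr11:58948920-58956830) and 1, Hist4h4, on chromosome 6 (chr6:136801553-136804415, minus strand).

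The libraries held 7162089 to 8262474 counts in the knockout group and 5882912 to 10066661 in the control group (exact two-sided permutation p = 1). Levels are given as CPM, the usual depth-scaled count, on library totals adjusted with TMM factors, and a count of 0 allows up to 0.292 to 0.483 CPM (3 counts, counting error only). Jagn1 gave 2, 1, 1 and 1 counts in the knockout libraries and 19, 35, 16 and 99 counts in the control libraries; which of its exons are deleted is not stated. Genes were called at a Benjamini-Hochberg adjusted p under 0.05 in edgeR's quasi-likelihood test over the 9904 genes that passed the filter on low counts. Of all tested genes, 316 were called lower in knockout (3.19%) and 252 higher (2.54%), and the median log2 fold change was -0.01.

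Summed over each family, the tags of the cluster histone genes were lower in every knockout library than in every control library, for H1, H2A, H2B, H3 and H4 alike. The 68 members together gave 348, 246, 255 and 174 CPM in knockout replicates 1 to 4 and 788, 589.8, 527 and 492 CPM in control replicates 1 to 4. The means were 256 ± 71.4 CPM in knockout libraries and 599 ± 132 CPM in control libraries (SD, n = 4 each), a ratio of 0.427. Of the 39 members tested, 12 were called lower (30.8%, against 3.19% of all tested genes) and 0 higher (2.54% of all tested genes). At an unadjusted p under 0.05, 29 were lower and 0 higher. The share of all genes at that unadjusted p was not computed, here or for the sets below. DESeq2 and limma-voom each called 23 members lower (59%) and 0 higher. Of all tested genes, 4.95% were lower with DESeq2 and 5.87% with limma-voom, which also applies to the sets below. All 39 tested members had a fitted log2 fold change below 0 (51.3% of all genes did), with a median of -1.48. All 4 knockout values lay below all 4 control values in 18 of the 39 (46.2%), against 6.64% of all tested genes, and above them in 0 (6.45% of all tested genes). Of these 39, 17 entered the test through the control group alone.

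These counts rest in part on single libraries. Control replicate 1 was the highest control library in 23 of the 39 members and control replicate 4 the lowest in 20, while knockout replicate 1 was the highest knockout library in 19 and knockout replicate 4 the lowest in 16. Without control replicate 4, 25 members were called lower (61% of those tested, against 4.79% of all genes). The number fell to 5 without knockout replicate 2, knockout replicate 3 or control replicate 2, and to 7 without knockout replicate 4 or control replicate 3. In those 5 fits 11.4% to 17.1% of the tested members and 1.31% to 2.1% of all genes were lower. Without control replicates 1 and 4 together it was 13. Because plasmablasts were measured in bulk, fewer cells in S phase and less histone mRNA per cell cannot be told apart.

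**Figure D1:**
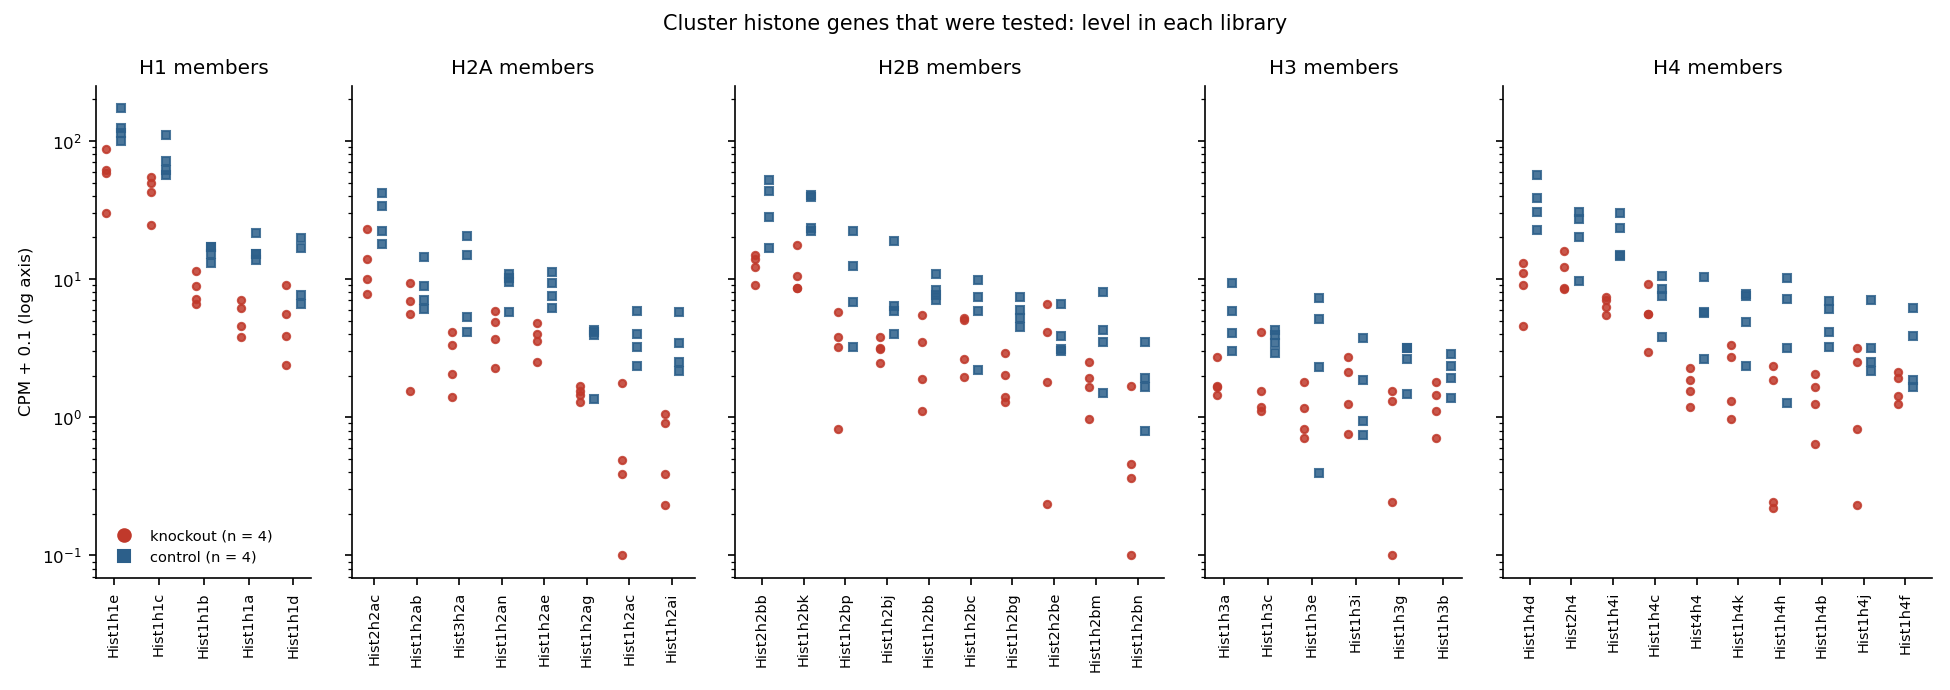
Level of each of the 39 tested cluster histone genes (CPM + 0.1, log axis) in the 4 knockout libraries (red circles) and the 4 control libraries (blue squares), by family, ordered by mean level. Hist1h1e and Hist1h1c have the most counts. All knockout values lie below all control values in 18 members (46.2%, against 6.64% of all tested genes). Of these 18, 10 reached the filter on low counts in every library.

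The filter on low counts bears on how the members can be read. It required about 1.34 CPM in 4 libraries, and 17 members reached that level in every library, 17 in all 4 control libraries but not in all 4 knockout libraries, 0 in the knockout libraries alone and 5 in some mixture. A filter passed through the control group favours members that are lower in knockout, so the direction of those 17 is not independent of it. The 17 members that reached the level in every library were all fitted below 0, with a median of -1.14. Of them 7 were called lower, 41.2% against 3.19% of all tested genes, and in 10 (58.8%, against 6.64% of all tested genes) the groups did not overlap. The shares of all tested genes include genes that missed the level in some library. No share was computed for genes that reached it in every library. The 17 members comprise 5 H1, 4 H2A, 4 H2B and 4 H4 genes and no H3 gene. Just inside the filter, Hist1h3b had 1.34, 1.0, 1.7 and 0.60 CPM in knockout replicates 1 to 4 and 1.82, 1.29, 2.78 and 2.24 CPM in control replicates 1 to 4. Also inside, Hist1h2bn had 0, 1.58, 0.262 and 0.36 CPM in knockout replicates 1 to 4 and 1.82, 3.38, 0.695 and 1.56 CPM in control replicates 1 to 4. In both the groups overlapped. Just outside it, Hist1h2ak had 0.402, 1.29, 1.05 and 0.72 CPM in knockout replicates 1 to 4 and 7.57, 7.88, 2.78 and 0.486 CPM in control replicates 1 to 4. Hist1h2bh, outside as well, had 0.134, 0, 0.917 and 0.24 CPM in knockout replicates 1 to 4 and 5.33, 1.93, 1.11 and 1.46 CPM in control replicates 1 to 4. In Hist1h2ak and Hist1h2bh every knockout library was low and the control libraries spread widely.

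The H1 linker histones held the most tags, and 2 of 5 tested members fell (3.19% of all tested genes were lower). Tags of Hist1h1e made up 21.9% and tags of Hist1h1c 13.8% of the CPM of all members, averaged over the 8 libraries. As the kit primes at tails and runs of A, such shares rank tags and not the amounts of histone mRNA. Hist1h1a (chr13:23763666-23764406, plus strand), which encodes a linker subtype, had 6.03, 4.45, 6.94 and 3.72 CPM in knockout replicates 1 to 4 and 21.3, 15.1, 15.2 and 13.6 CPM in control replicates 1 to 4. Its groups did not overlap, and it fell in knockout (log2 fold change -1.62 ± 0.29 (SE), edgeR adjusted p = 0.00277). Hist1h1e (chr13:23620629-23622558, minus strand), which encodes a widely expressed linker subtype, had 87.9, 58.7, 61.9 and 30.1 CPM in knockout replicates 1 to 4 and 114, 123, 100.4 and 172 CPM in control replicates 1 to 4. Here too every knockout library was below every control library, and Hist1h1e fell (log2 fold change -1.10 ± 0.26 (SE), edgeR adjusted p = 0.0224). The annotated Hist1h1e transcript shares 496 exon bases on the same strand with the H2B gene Hist1h2be, named for this overlap. How tags in shared exons were counted is not stated. Leaving out knockout replicate 2 or 3, control replicate 2, or control replicates 1 and 4 together ended the call, with an adjusted p up to 0.113.

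Hist1h1c, another widely expressed H1 gene, had 54.4, 49.4, 42.3 and 24.6 CPM in knockout replicates 1 to 4 and 111, 71.9, 61.7 and 56.3 CPM in control replicates 1 to 4. The groups did not overlap, but the difference did not pass (log2 fold change -0.82 ± 0.25 (SE), edgeR adjusted p = 0.0757). Hist1h1b had 11.3, 6.46, 8.77 and 7.08 CPM in knockout replicates 1 to 4 and 17, 16.9, 12.9 and 15.1 CPM in control replicates 1 to 4, also without overlap and without passing (log2 fold change -0.88 ± 0.26 (SE), edgeR adjusted p = 0.0591). Both passed without control replicate 4, with adjusted p of 0.0205 for Hist1h1c and 0.0468 for Hist1h1b, and with DESeq2 and limma-voom. Hist1h1d averaged 5.13 ± 2.88 CPM in knockout libraries and 12.6 ± 6.62 CPM in control libraries with overlapping groups (adjusted p = 0.114, edgeR). DESeq2 and limma-voom each called all 5 tested H1 genes lower, Hist1h1d included (4.95% and 5.87% of all tested genes were lower). The remaining member, the testis gene Hist1h1t, had 0 counts in every library. In sum the H1 genes gave 169, 124, 124 and 67.8 CPM in knockout replicates 1 to 4 and 281, 247, 198 and 264 CPM in control replicates 1 to 4, a ratio of means of 0.490.

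Among the H2A genes, 3 of 8 tested members fell (3.19% of all tested genes were lower), and the ratio of mean sums was 0.408. DESeq2 called 6 of the 8 lower and limma-voom 5 (4.95% and 5.87% of all tested genes were lower). Hist1h2ai and Hist3h2a entered the test through the control group alone, and of the 4 H2A members that reached the filter in every library 1 fell. Hist1h2ae (chr13:23570517-23571220, minus strand) had 3.89, 3.45, 4.71 and 2.4 CPM in knockout replicates 1 to 4 and 11.2, 6.11, 9.32 and 7.39 CPM in control replicates 1 to 4. The groups did not overlap, and the difference passed by a small margin (log2 fold change -1.23 ± 0.34 (SE), edgeR adjusted p = 0.048). The call did not hold with any 1 knockout replicate, or control replicate 1, 2 or 3, left out, nor with control replicates 1 and 4 both dropped, no filter or no robust estimation, with an adjusted p up to 0.146.

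Hist1h2ai (chr13:21716422-21716814, plus strand) had 0.804, 0.287, 0.131 and 0.96 CPM in knockout replicates 1 to 4 and 3.37, 2.41, 5.7 and 2.04 CPM in control replicates 1 to 4. Its knockout counts were 6, 2, 1 and 8, so the size of its fall rests on few reads (log2 fold change -2.58 ± 0.68 (SE), edgeR adjusted p = 0.037). It shares 99.2% of the 50-base words at its annotated 3′ end with other genes, and its call was lost with any 1 of the 4 knockout replicates left out and without control replicate 2 or 3 (adjusted p up to 0.157). Hist3h2a (chr11:58954685-58956830, plus strand), an H2A gene of the small cluster on chromosome 11, had 4.02, 1.29, 1.96 and 3.24 CPM in knockout replicates 1 to 4 and 20.5, 14.8, 4.03 and 5.25 CPM in control replicates 1 to 4. Control replicates 1 and 2 were well above control replicates 3 and 4, and knockout replicate 1 lay within 0.1 CPM of control replicate 3. Hist3h2a fell in knockout (log2 fold change -2.06 ± 0.52 (SE), edgeR adjusted p = 0.0285), although not with any 1 of the 4 knockout replicates left out or without control replicate 1 or 2 (adjusted p up to 0.116). It shares 708 exon bases on the same strand with Trim17, named for this overlap.

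Hist2h2ac, the H2A member with the highest mean level, had 23.1, 13.8, 9.95 and 7.68 CPM in knockout replicates 1 to 4 and 41.9, 33.5, 17.8 and 22.1 CPM in control replicates 1 to 4. Knockout replicate 1 lay above control replicates 3 and 4, and the difference did not pass (log2 fold change -1.08 ± 0.34 (SE), edgeR adjusted p = 0.0777), although it did without knockout replicate 1 (adjusted p = 0.0283), without control replicate 4 (adjusted p = 0.0316), and with DESeq2 and limma-voom. Hist1h2ab averaged 5.76 ± 3.29 CPM in knockout libraries and 8.99 ± 3.73 CPM in control libraries (adjusted p = 0.501, edgeR), and Hist1h2an averaged 4.08 ± 1.56 CPM in knockout libraries and 8.96 ± 2.29 CPM in control libraries (adjusted p = 0.0854, edgeR). Both had overlapping groups. The lowest fitted value of all 39 members belonged to Hist1h2ac, chosen after its values were seen, at -2.60 ± 0.77 (SE, edgeR adjusted p = 0.0632), with 0, 2, 3 and 14 counts in knockout libraries and 41, 14, 28 and 32 in control libraries. Hist1h2ac, too, entered the test through the control group alone. Most H2A transcripts also face a predicted antisense gene model of about 138 bases on the opposite strand. The sources used here do not say whether the counting used strand.

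Among the H2B genes, 3 of 10 tested members fell (3.19% of all tested genes were lower), and the ratio of mean sums was 0.369. DESeq2 called 6 of the 10 lower and limma-voom 5 (4.95% and 5.87% of all tested genes were lower). Hist1h2bg entered the test through the control group alone, and of the 4 H2B members that reached the filter in every library 2 fell. Hist1h2bk (chr13:22035870-22036345, plus strand) had 17.6, 8.47, 10.3 and 8.52 CPM in knockout replicates 1 to 4 and 40.4, 39.4, 22.1 and 23.4 CPM in control replicates 1 to 4. The highest knockout library was below the lowest control library, and Hist1h2bk fell (log2 fold change -1.48 ± 0.29 (SE), edgeR adjusted p = 0.00599). Hist2h2bb (chr3:96269752-96270132, plus strand) had 14.9, 13.9, 12.2 and 9.0 CPM in knockout replicates 1 to 4 and 52.5, 43.1, 27.8 and 16.7 CPM in control replicates 1 to 4. The groups did not overlap, with knockout replicate 1 close to control replicate 4, and Hist2h2bb fell (log2 fold change -1.48 ± 0.31 (SE), edgeR adjusted p = 0.00879). Its exon shares 226 bases with the same-strand model Gm42743 and 381 with Gm20628 on the opposite strand, both named for this overlap.

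Hist1h2bg (chr13:23571396-23572013, plus strand) had 2.82, 1.29, 1.18 and 1.92 CPM in knockout replicates 1 to 4 and 5.89, 5.15, 7.37 and 4.38 CPM in control replicates 1 to 4. Every knockout value was below every control value (log2 fold change -1.65 ± 0.45 (SE), edgeR adjusted p = 0.0414), but the call was lost without knockout replicate 2, 3 or 4 and without control replicate 2 or 3, with an adjusted p up to 0.139. Hist1h2bj had 3.08, 3.01, 2.36 and 3.72 CPM in knockout replicates 1 to 4 and 18.8, 5.79, 6.26 and 3.89 CPM in control replicates 1 to 4. Control replicate 1 stood far above the other controls, and the difference did not pass (log2 fold change -1.50 ± 0.47 (SE), edgeR adjusted p = 0.0763) except without control replicate 4 (adjusted p = 0.0128), with DESeq2 and without a filter. Hist1h2bp averaged 3.31 ± 2.02 CPM in knockout libraries and 11.1 ± 8.38 CPM in control libraries with overlapping groups and did not pass (adjusted p = 0.111, edgeR), although it did without control replicate 4 (adjusted p = 0.0124) and with DESeq2 and limma-voom.

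**Figure D2:**
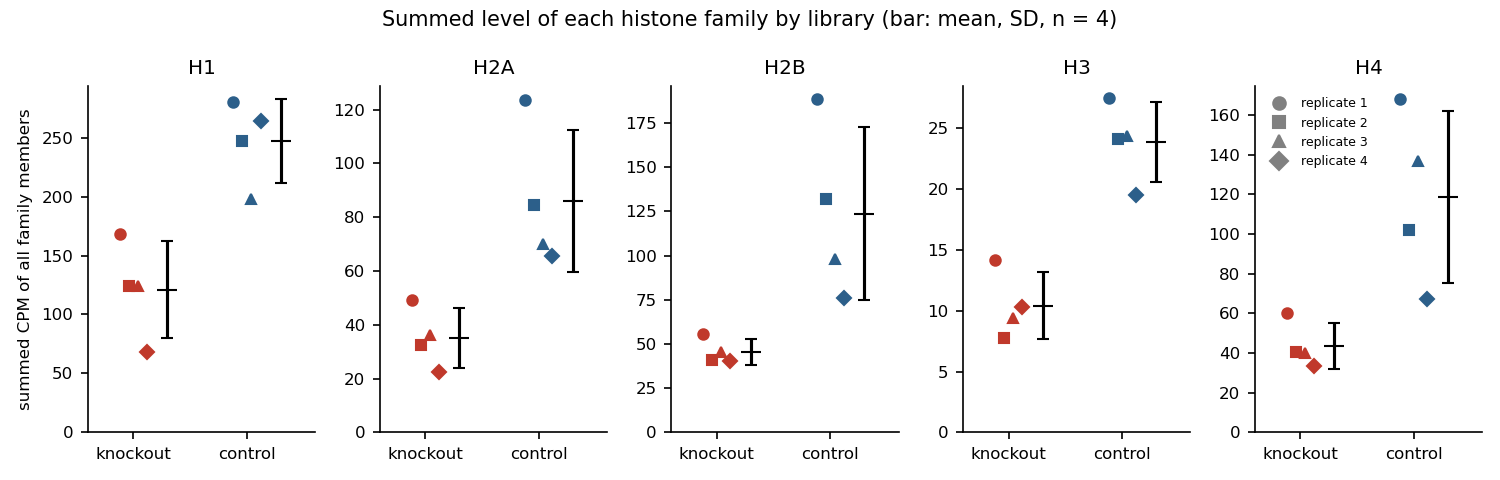
Summed CPM of all members of each histone family in the 4 knockout libraries (left, red) and the 4 control libraries (right, blue), with the mean and SD beside the points and a marker shape for each replicate number. In every family all 4 knockout sums lie below all 4 control sums, and control replicate 1 is the highest library.

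No H3 gene was called: 0 of 6 tested members passed (3.19% of all tested genes were lower), with 3 at an unadjusted p under 0.05 and a median of -1.26, while DESeq2 called 1 lower and limma-voom 2. H3 tags were also the fewest, 4.21% ± 1.2 of the member CPM in knockout libraries and 4.04% ± 0.464 in control libraries (SD, n = 4 each). Hist1h3a had 1.34, 1.58, 2.62 and 1.56 CPM in knockout replicates 1 to 4 and 5.75, 2.9, 9.32 and 3.99 CPM in control replicates 1 to 4. Its groups did not overlap, and the difference did not pass (log2 fold change -1.62 ± 0.49 (SE), edgeR adjusted p = 0.0669). It passed without control replicate 4 (adjusted p = 0.0349), without control replicates 1 and 4 (adjusted p = 0.0464), and with DESeq2 and limma-voom. Hist1h3c had 4.02, 1.0, 1.44 and 1.08 CPM in knockout replicates 1 to 4 and 2.81, 3.86, 3.34 and 4.18 CPM in control replicates 1 to 4 and did not pass (edgeR adjusted p = 0.417); knockout replicate 1 stood apart from the other 3 knockout libraries and was at the level of the controls. Hist1h3e averaged 1.02 ± 0.495 CPM in knockout libraries and 3.7 ± 3.06 CPM in control libraries, and control replicate 4 (0.292 CPM) was below all knockout libraries. It did not pass (adjusted p = 0.21, edgeR), but did without that library (adjusted p = 0.0255). Hist1h3i averaged 1.61 ± 0.885 CPM in knockout libraries and 1.72 ± 1.37 CPM in control libraries (log2 fold change -0.09 ± 0.68, SE, edgeR adjusted p = 0.966), and its sign changed under several settings. As a family the H3 genes still summed to 14.2, 7.75, 9.43 and 10.3 CPM in knockout replicates 1 to 4 and 27.5, 24.1, 24.3 and 19.5 CPM in control replicates 1 to 4, a ratio of means of 0.437.

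Among the H4 genes, most of which encode the identical protein, 4 of 10 tested members fell (3.19% of all tested genes were lower), and the ratio of mean sums was 0.367. DESeq2 called 5 of the 10 lower and limma-voom 6 (4.95% and 5.87% of all tested genes were lower). Hist1h4b and Hist4h4 entered the test through the control group alone, and of the 4 H4 members that reached the filter in every library 2 fell. Hist1h4d (chr13:23581598-23582735, plus strand) had 13, 10.9, 8.91 and 4.44 CPM in knockout replicates 1 to 4 and 56.9, 30.6, 38.8 and 22.5 CPM in control replicates 1 to 4. The highest knockout library was well below the lowest control library, and Hist1h4d fell (log2 fold change -2.0 ± 0.33 (SE), edgeR adjusted p = 0.00165), with the smallest adjusted p of all members. Hist1h4i (chr13:22040636-22041362, minus strand) had 6.97, 7.32, 5.37 and 6.12 CPM in knockout replicates 1 to 4 and 29.9, 14.6, 23.5 and 14.8 CPM in control replicates 1 to 4. Its knockout libraries lay close together and below all controls (log2 fold change -1.68 ± 0.28 (SE), edgeR adjusted p = 0.00189). Neither gene shares a 50-base word at its annotated end with another gene.

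Hist1h4b (chr13:23757013-23757409, plus strand) had 0.536, 1.15, 1.96 and 1.56 CPM in knockout replicates 1 to 4 and 6.87, 4.02, 5.98 and 3.11 CPM in control replicates 1 to 4. The groups did not overlap and Hist1h4b fell (log2 fold change -1.92 ± 0.52 (SE), edgeR adjusted p = 0.0397), although the call did not hold with any 1 of the 4 knockout replicates left out or without control replicate 1, 2 or 3 (adjusted p up to 0.135). It shares 223 exon bases with the opposite-strand gene 4930558J22Rik, named for this overlap. Hist4h4, which lies alone on chromosome 6, had 1.74, 2.15, 1.44 and 1.08 CPM in knockout replicates 1 to 4 and 5.61, 10.3, 5.7 and 2.53 CPM in control replicates 1 to 4. It fell (log2 fold change -1.90 ± 0.50 (SE), edgeR adjusted p = 0.0359), but not with any 1 of the 4 knockout replicates left out or without control replicate 2 or 3 (adjusted p up to 0.152). Hist2h4 had 15.8, 12.1, 8.51 and 8.4 CPM in knockout replicates 1 to 4 and 30.7, 20.1, 27.1 and 9.53 CPM in control replicates 1 to 4. Control replicate 4 lay within the knockout range, and the difference did not pass (log2 fold change -0.96 ± 0.33 (SE), edgeR adjusted p = 0.118) except without that library (adjusted p = 0.00557), with control replicates 1 and 4 both dropped (adjusted p = 0.0126) and in limma-voom. Hist1h4c averaged 5.75 ± 2.56 CPM in knockout libraries and 7.49 ± 2.82 CPM in control libraries with overlapping groups (adjusted p = 0.699, edgeR).

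**Figure D3:**
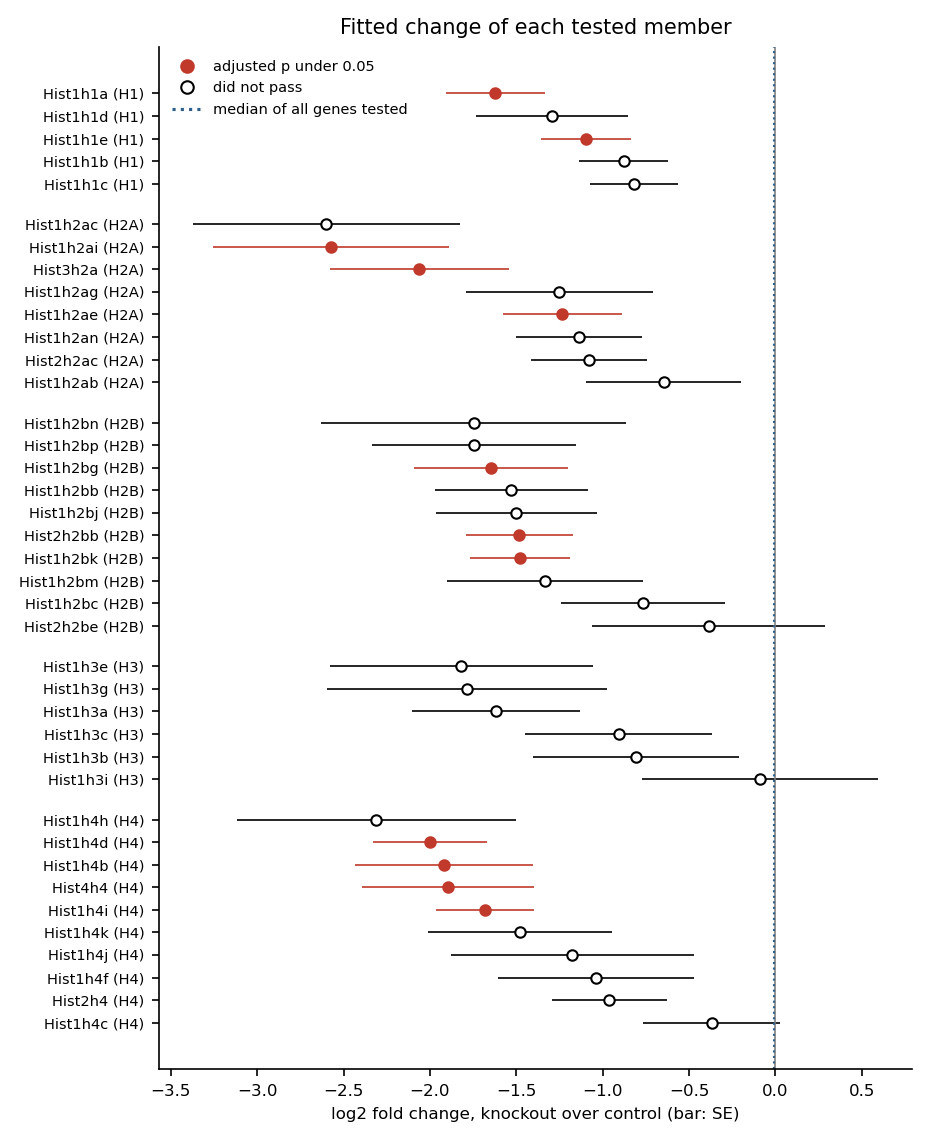
Fitted log2 fold change, knockout over control, of the 39 tested members by family, with SE bars; filled red points passed an adjusted p of 0.05 and open points did not, and the dotted line is the median of all 9904 tested genes (-0.01). All 39 points lie below 0, from -2.60 for Hist1h2ac to -0.09 for Hist1h3i. Of the 39 members, 17, Hist1h2ac among them, entered the test through the control group alone, which favours values below 0.

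Set beside each other, the families kept similar shares of the member tags in both groups. H1 made up 46.6% ± 5.26 of the member CPM in knockout libraries and 42.1% ± 8.05 in control libraries. H2A made up 13.6% ± 0.697 in knockout libraries and 14.2% ± 1.14 in control libraries, and H2B 18.4% ± 3.24 in knockout libraries and 20.1% ± 3.8 in control libraries. H4 made up 17.2% ± 1.55 in knockout libraries and 19.6% ± 5.29 in control libraries (SD, n = 4 each for all families). Each of these differences was smaller than the SD of at least the control group. The ratios of mean sums ran from 0.367 (H4) to 0.490 (H1), and no test of a difference between families was made. Without Hist1h1e, the member with the most tags, the ratio over the other 67 members was 0.416.

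The members below the filter can be counted but were not tested. Of the 29 members not tested, 18 had counts and 11 had 0 counts in every library. Fitted without any filter, 16 of those 18 had a log2 fold change below 0 and 1, Hist1h2ak, was called (edgeR adjusted p = 0.0349). Of all 14595 genes in that fit 2.31% were called lower, and the share fitted below 0 was not computed. Hist3h2ba, an H2B gene on chromosome 11 chosen after its values were seen, had 0 counts in all knockout libraries and 0, 3, 8 and 1 in control replicates 1 to 4. At a floor of 3 counts over the knockout group it was at least 3.94-fold lower, if the 12 control counts are taken as exact. Most of those came from control replicate 3, and the groups overlapped at 0. Its fit without a filter did not pass (edgeR adjusted p = 0.253). The 11 members at 0 were 1 H1, 5 H2A, 3 H2B and 2 H3 genes. Of them 7 share at least 70% of the 50-base words in the last 300 bases of the annotated transcript with another gene, as 17 of the 57 members with counts do. The median shared percentage was 88.8% in the members at 0 and 44.7% in the members with counts. The sources used here do not say how reads that fit several genes were counted, so a 0 for such a member does not show that it is silent.

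**Figure D4:**
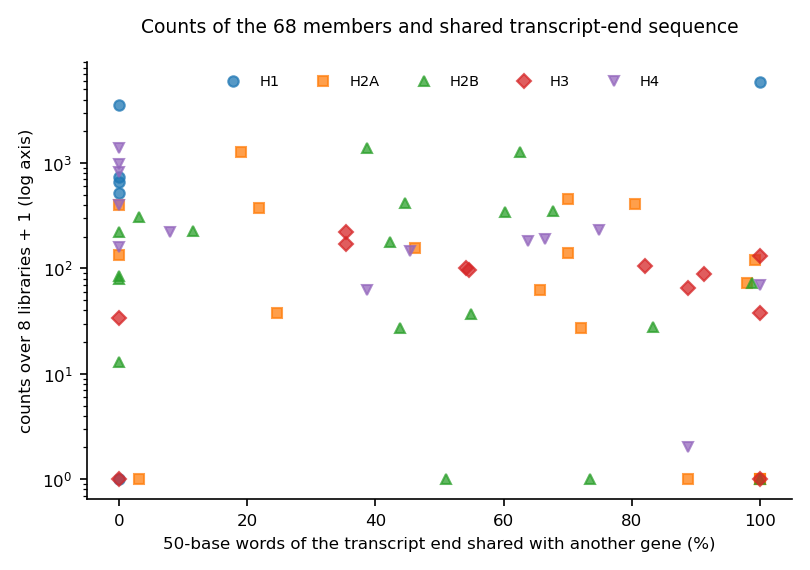
Counts over the 8 libraries + 1 (log axis) of each of the 68 members against the percentage of 50-base words in the last 300 bases of its annotated transcript that also occur in another gene, with color and shape by family. Of the 11 members at 0 counts, at the bottom, 7 lie at 70% or more, where 17 members with counts also lie.

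Where a member's annotated transcript ends was set against its counts, since the kit needs a tail. In 23 members the transcript is annotated to run more than 100 bases past the stem-loop, and these held 59.7% of all member counts, most of them from Hist1h1e and Hist1h1c. In another 23 it ends within 100 bases of the stem-loop (22% of the counts), and in 22 no stem-loop lies in the annotated transcript (18.3%). Without Hist1h1e and Hist1h1c the longer ends held 36.7% of the remaining counts and the short ends 34.6%. With both genes included, the median level over the members was 2.60 CPM for the longer ends and 2.43 CPM for the short ends. The medians without them were not computed. A poly(A) signal, AATAAA or ATTAAA, lay in the last 50 annotated bases of 12 members with the longer end, 2 with the short end and 3 with no stem-loop. Of the tested members, 7 of 14 with the longer end were called lower, 2 of 15 with the short end and 3 of 10 with no stem-loop, against 3.19% of all tested genes. Some called members entered the test through the control group alone. These were Hist3h2a, Hist1h2bg and Hist4h4 with the longer end, Hist1h4b with the short end and Hist1h2ai with no stem-loop. The counts of calls by end class are therefore not independent of the filter. The medians were close: -1.47 for the longer ends, -1.48 for the short ends and -1.31 without a stem-loop. The ratio of summed CPM, knockout over control, was 0.445 for the longer ends (0.364 without Hist1h1e and Hist1h1c), 0.398 for the short ends and 0.405 without a stem-loop. Members with a poly(A) signal had a ratio of 0.464 (4 of 10 tested called) and those without had 0.412 (8 of 29). By the share of end sequence found in other genes, the ratio was 0.445 for members with 0% shared words, 0.391 for those over 0% and under 50%, and 0.428 for those at 50% or more.

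The members were next set beside other genes of the histone pathway, from lists chosen with earlier results of these data known. Some genes are in several lists. Ccne1 counts as called both among the S phase genes and among the genes that make and degrade histone mRNA. Of the 41 tested S phase genes, 11 were lower and 0 higher in edgeR, against 3.19% and 2.54% of all tested genes (unadjusted 19 lower and 0 higher, DESeq2 12 and 0, limma-voom 15 and 0), with a median log2 fold change of -0.51 (all genes -0.01). Mcm3, a subunit of the replicative helicase, had 145, 144, 136 and 137 CPM in knockout replicates 1 to 4 and 229.6, 218, 212 and 243 CPM in control replicates 1 to 4 (log2 fold change -0.69 ± 0.13 (SE), edgeR adjusted p = 0.00419). Lig1, which joins newly made DNA fragments, averaged 503 ± 33.2 CPM in knockout libraries and 895 ± 195 CPM in control libraries (log2 fold change -0.83 ± 0.16 (SE), edgeR adjusted p = 0.00435). Mcm7, another helicase subunit (log2 fold change -0.88 ± 0.16, edgeR adjusted p = 0.00394), and Uhrf1, which couples DNA methylation to replication (-0.84 ± 0.17, edgeR adjusted p = 0.00632), also fell, and all 4 of these genes had groups that did not overlap. They were named for the smallest p in the list, so the lack of overlap follows in part from that choice.

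The summed S phase genes gave 2222, 1947, 2116 and 2144 CPM in knockout replicates 1 to 4 and 3495, 3084, 2978 and 3397 CPM in control replicates 1 to 4, a ratio of means of 0.651, beside 0.427 for the cluster histones. Per 100 CPM of S phase genes the knockout libraries held 15.7, 12.6, 12 and 8.14 CPM of cluster histones and the control libraries 22.5, 19.1, 17.7 and 14.5. The means were 12.1 ± 3.10 in knockout libraries and 18.5 ± 3.34 in control libraries (SD, n = 4 each), and knockout replicate 1 lay above control replicate 4, so the groups overlapped. S phase gene level moved with the histone level between the groups, and its part in the histone difference was not tested.

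**Figure D5:**
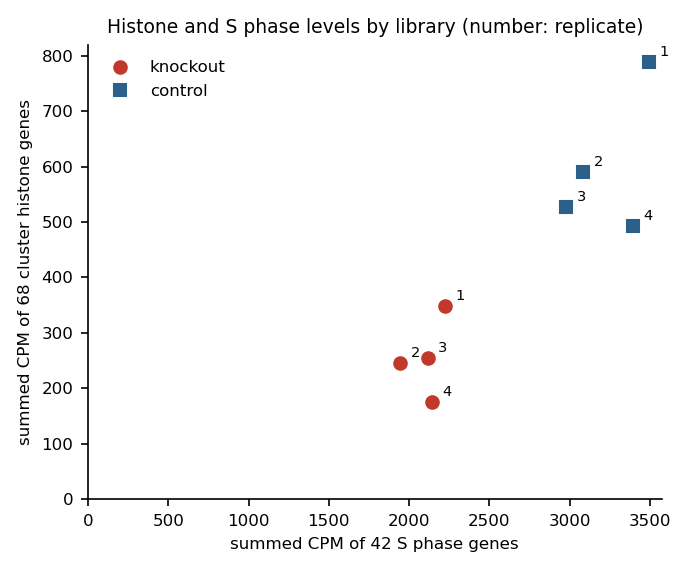
Summed CPM of the 68 cluster histone genes (vertical) against summed CPM of 42 S phase genes (horizontal) in the 4 knockout libraries (red circles) and the 4 control libraries (blue squares), numbered by replicate. The knockout libraries lie lower on both axes, at 174 to 348 CPM of histones against 492 to 788 CPM in control libraries.

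The replacement histones most often come from polyadenylated mRNAs made through the whole cell cycle. Of 15 such genes 9 were tested, and edgeR called 0 lower and 0 higher, against 3.19% and 2.54% of all tested genes. So few genes cannot set 0 calls apart from those shares. Their median log2 fold change was -0.31. At an unadjusted p under 0.05, 2 were lower, and DESeq2 called 0 and limma-voom 1. H2afx, the variant phosphorylated at DNA breaks, whose mRNA is known both with a tail and with a stem-loop end, had 15.8, 11.8, 16.6 and 17.6 CPM in knockout replicates 1 to 4 and 19.4, 24.3, 19.5 and 41.4 CPM in control replicates 1 to 4 and did not pass (log2 fold change -0.76 ± 0.26 (SE), edgeR adjusted p = 0.118), although it did without control replicate 1 (adjusted p = 0.0355). H1f0, the linker variant of resting cells, had 23.7, 18.2, 21 and 23.7 CPM in knockout replicates 1 to 4 and 29.5, 31.9, 29.3 and 31.8 CPM in control replicates 1 to 4 and did not pass (log2 fold change -0.50 ± 0.18 (SE), edgeR adjusted p = 0.14). In both genes all knockout values lay below all control values, as in 6.64% of all tested genes. Both were named for the smallest p in the list, so the lack of overlap follows in part from that choice. The summed level of the replacement histones overlapped between the groups, at 2096 to 2521 CPM in knockout libraries and 2052 to 2824 CPM in control libraries. Per 100 CPM of replacement histones, cluster histones gave 7.91 to 13.8 CPM in knockout libraries and 17.4 to 38.4 CPM in control libraries, without overlap.

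Of 28 tested genes that make and degrade histone mRNA, 1 was lower and 0 higher in edgeR, near the 3.19% and 2.54% of all tested genes (median -0.09), with 2 lower and 1 higher at an unadjusted p under 0.05 and 2 lower and 0 higher by DESeq2 and by limma-voom. Ccne1, the cyclin E that activates histone transcription through NPAT, had 6.7, 6.46, 6.02 and 9.84 CPM in knockout replicates 1 to 4 and 11.5, 10.9, 15.3 and 32.6 CPM in control replicates 1 to 4. It fell (log2 fold change -1.28 ± 0.35 (SE), edgeR adjusted p = 0.0421), but control replicate 4 was far above the other controls, and the call was lost with any 1 of the 4 knockout replicates left out and without control replicate 3 or 4 (adjusted p up to 0.146). Slbp, chosen for its role after its values were seen, had 19.7, 23.1, 25.5 and 32.7 CPM in knockout replicates 1 to 4 and 11.9, 21.9, 25.6 and 37.2 CPM in control replicates 1 to 4, with overlapping groups (log2 fold change 0.06 ± 0.29 (SE), edgeR adjusted p = 0.947). Npat, a coactivator of histone gene transcription, chosen in the same way, averaged 14.3 ± 3.23 CPM in knockout libraries and 15.4 ± 1.56 CPM in control libraries (edgeR adjusted p = 0.875).

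Of 24 histone chaperones, 2 were lower and 0 higher in edgeR (3.19% and 2.54% of all tested genes; median -0.16), with 4 lower and 2 higher at an unadjusted p under 0.05, 2 and 0 by DESeq2, and 2 and 1 by limma-voom. Chaf1a, the large subunit of the assembly factor that places new H3 and H4 behind the replication fork, had 42.6, 37.3, 42.7 and 52.8 CPM in knockout replicates 1 to 4 and 85.8, 91.4, 72.7 and 59 CPM in control replicates 1 to 4 and fell (log2 fold change -0.81 ± 0.18 (SE), edgeR adjusted p = 0.0129). Nasp, which holds soluble H3 and H4, averaged 277 ± 16.7 CPM in knockout libraries and 395 ± 37.1 CPM in control libraries and fell (log2 fold change -0.51 ± 0.13 (SE), edgeR adjusted p = 0.0309). Chaf1a did not pass without knockout replicate 1, 2 or 3 or control replicate 2 (adjusted p up to 0.075), nor Nasp with any 1 knockout replicate left out or without control replicate 2 or 3 (adjusted p up to 0.127). Of 19 tested genes of E2F and cell cycle control, 2 were lower and 1 higher in edgeR (3.19% and 2.54% of all tested genes; median -0.37), with 5 and 1 at an unadjusted p under 0.05, 3 and 1 by DESeq2, and 5 and 1 by limma-voom. E2f1, an activator of S phase genes, averaged 77.2 ± 14.6 CPM in knockout libraries and 125 ± 19.7 CPM in control libraries and fell (log2 fold change -0.69 ± 0.17 (SE), edgeR adjusted p = 0.0262), and Rbl1, a partner of repressive E2Fs, averaged 15.2 ± 2.16 CPM in knockout libraries and 26.5 ± 4.13 CPM in control libraries and fell (log2 fold change -0.80 ± 0.21 (SE), edgeR adjusted p = 0.0323). The E2f1 call was lost without knockout replicate 2 or 3 or control replicate 2 or 3 (adjusted p up to 0.126), and the Rbl1 call without knockout replicate 1, 2 or 3 or control replicate 2 or 3 (adjusted p up to 0.137). Cdkn1a, the cyclin-dependent kinase inhibitor p21, had 33.5, 42.9, 46 and 41.3 CPM in knockout replicates 1 to 4 and 12.1, 11.6, 9.6 and 10.02 CPM in control replicates 1 to 4 and rose (log2 fold change 1.92 ± 0.20 (SE), edgeR adjusted p = 4.35e-05), with all knockout libraries above all controls.

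Some cell type markers moved with the groups as well. Of 10 plasmablast markers, 5 were called lower (Sdc1, Jchain, Cd93, Slamf7 and Tnfrsf17), against 3.19% of all tested genes. The 10 together gave 21520 to 27597 CPM in knockout libraries and 27623 to 34816 CPM in control libraries. Sdc1, which encodes the CD138 used in the sort, had 18.9, 16.8, 23.3 and 19.4 CPM in knockout replicates 1 to 4 and 40.4, 33, 34.5 and 56.6 CPM in control replicates 1 to 4 (log2 fold change -1.07 ± 0.21 (SE), edgeR adjusted p = 0.00635). Of 8 tested B cell markers 1, Cd79a, was lower (3.19% of all tested genes were). The B cell markers summed to 842 to 961 CPM in knockout libraries and 907 to 1172 CPM in control libraries. Cd79a, which is part of these sums, is the gene that drives the recombinase listed for the knockout group only. Its change therefore cannot be told apart from the presence of the recombinase. Cd22, named because the sort selected against its protein, gave 203 counts in knockout libraries and 196 in control libraries. Of 10 T cell markers, the 8 in the files summed to 19.98 to 29.4 CPM in knockout libraries and 30.3 to 38.9 CPM in control libraries, with 0 of 4 tested called by edgeR, DESeq2 or limma-voom and 0 at an unadjusted p under 0.05. Myeloid markers summed to 2.68 to 5.46 CPM in knockout libraries and 2.41 to 6.73 CPM in control libraries, with 6 of 11 at 0, Lyz2, Mpo and S100a8 among them. NK cell markers gave at most 2.36 CPM in knockout libraries and 3.09 CPM in control libraries (3 of 6 at 0), erythroid markers at most 0.262 CPM in knockout libraries and 0.875 CPM in control libraries (6 of 8 at 0, all globins included), and megakaryocyte markers 2.01 to 8.04 CPM in knockout libraries and 1.54 to 4.45 CPM in control libraries (3 of 5 at 0). The part of plasmablast and T cell markers in the histone difference was not tested.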

How the data were processed

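Sorted cells gave Trizol RNA and QuantSeq 3′ mRNA-Seq (FWD) libraries, per the labels' protocols. The deposited files hold raw read counts, 1 whole number for each gene symbol. The submitters' processing notes name the mm10 build and the tools TopHat2 2.1.1, BWA 0.7.12, HTSeq 0.6.1 and SAMtools 1.3.1. The sources used here do not give the annotation, the strand setting or the handling of reads that fit several genes. No molecular identifiers are stated, so counts may include PCR copies.

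Genes were filtered with filterByExpr (minimum count 10, minimum total 15), leaving 9904 of 24413. They were tested with edgeR 4.0.16 (R 4.3.3): TMM factors, robust quasi-likelihood F-test, group as the only term, two-sided, Benjamini-Hochberg adjustment over all tested genes. A fitted change over the root of its F gave its standard error. The biological coefficient of variation was 0.274. Within groups, libraries differed beyond sampling noise (chi-square per degree of freedom 6.6 to 94.2). The steps were tested on simulated counts. Counts were not divided by length, since the kit reads 1 tag per transcript end.

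The members and lists were chosen with earlier results of these data known. Named are Jagn1, all called members, up to 4 members per family with the highest mean CPM, those next to the filter, and up to 4 called genes per list (or the 2 of lowest p); any other is marked as chosen with its values in view. Annotation came from GENCODE M21 (all 68 members matched) and promoters from RefSeq GRCm38.p6 (61 matched by symbol and position). The alternatives tried were limma-voom (limma 3.58.1, sample weights), DESeq2 1.42.0, other scalings and filters, a fit without robust estimation, a replicate block, and leaving out libraries.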

Additional observations from a re-analysis of the deposited data

Results flagged for a closer look

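Of 49 results checked in each of 2 groups for a library that stands apart from the other 3, 4 were marked; chance marks about 1 in 20 groups. The measure was the gap to the nearest library over the range of the group, read against Dixon's critical value for 4 samples. Hist1h2bj had 18.8 CPM in control replicate 1, where the other controls had 3.89 to 6.26 CPM. Hist1h3c had 4.02 CPM in knockout replicate 1, where the other knockout libraries had 1.00 to 1.44 CPM. Mcm7 had 64.1 CPM in knockout replicate 4, below the 85.4 to 89.1 CPM of the other knockout libraries. Jagn1 had 0.268 CPM in knockout replicate 1, from 2 counts, where the others had 0.120 to 0.144 CPM, from 1 count each.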

How the results depend on the processing

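The number of members called higher was 0 under all 18 alternatives, and 5 members (Hist1h1a, Hist1h2bk, Hist1h4d, Hist1h4i and Hist2h2bb) were called lower under every one of them. The share of all genes called lower under every alternative was not computed. The count of members called lower was 23 with DESeq2 (4 members had no adjusted p) and 23 with limma-voom, and 5 to 25 when single libraries were left out. With RLE factors and with upper-quartile factors it was 12, with library totals only 13, with no filter 15, with a filter of 1 CPM 12, with no robust estimation 11, and 13 when control replicates 1 and 4 were both dropped. The number tested changed as well, to 57 members with no filter and 45 with a filter of 1 CPM. These counts were 26.3% (no filter) to 33.3% (library totals only) of the tested members. Of all genes, 2.31% (no filter) to 4.5% (control replicates 1 and 4 dropped) were lower in these fits. With the replicate block it was 33.3% of members and 2.69% of all genes. Over all genes, 490 were lower with DESeq2 and 581 with limma-voom, and 133 to 481 with a library left out. Higher were 471 with limma-voom, 438 without control replicates 1 and 4, and 137 to 411 with a library left out. The cause of these shifts was not tested. With a replicate block 13 members were lower, of which 8 were among the 12 and 4 of the 12 (Hist1h2ae, Hist1h2ai, Hist1h2bg and Hist1h4b) did not pass; same-numbered libraries did not deviate together (correlations of 0.0438, -0.00342, 0.0422 and 0.0662, 3 of 8 libraries closest to their own number), so the numbers are not taken as pairs. Among the named genes the sign turned for Hist1h3i, to 0.26 with limma-voom, 0.027 with the replicate block and 1.11 when control replicates 1 and 4 were dropped. With a single library dropped it ran from -0.44 to 0.55, above 0 when that was knockout replicate 2 (0.04), knockout replicate 3 (0.17) or control replicate 1 (0.55). Hist2h2be, named for its sign, was at 0.01 with knockout replicate 1 dropped; the other 37 of the 39 members stayed below 0 in every alternative that fitted them. Of 720 values of 40 named genes, 607 kept direction and call, 77 lost the call, 30 gained it and 6 turned. Members hold 0.0176% to 0.0342% of counts in knockout libraries and 0.0503% to 0.0776% in control libraries. The effect of depth on their calls was not tested.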
